A study of Mus musculus with 14 samples.

Results

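The genes of the Myc network were examined in mouse embryonic stem cells (mESC) with and without knockdown of Smarcb1, a core subunit of the BAF chromatin remodelling complex that is known to oppose Myc. The members were 10 named genes, Myc, Mycn, Mycl, Max, Mxd1, Mxd3, Mxd4, Mnt, Mlx and Mga, out of 21938 protein-coding genes and 55413 genes in all. They were chosen by name and not by a measured value, and all 10 were found in the annotation. Chromatin immunoprecipitation followed by sequencing (ChIP-seq) had been performed with 5 antibodies, and every called peak or island was counted and placed in each gene region, which begins 1 kb before the transcription start (TSS) and ends with the gene, and in 20 kb on either side of it. This whole stretch is called the window of a gene.

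The cells were 81K1, a clone of the OG2 mESC line in which a cassette at the Rosa26 locus expresses an shRNA against Smarcb1 when doxycycline is present. Control cells were left untreated, and Smarcb1 kd cells received 1 µg/ml doxycycline every day and were fixed 72 h after induction. Both groups carried the integrated cassette and were grown on gelatine in medium with serum and leukaemia inhibitory factor. The ChIP-seq libraries include none with doxycycline and without the shRNA, so that in these libraries effects of the knockdown and of doxycycline itself cannot be told apart. For each antibody there was 1 library per condition from 1 clone. No difference between the conditions could therefore be set against a spread between replicates, no p-value was computed, and a region missing from a list is a missing call and not a measured absence. In these bulk libraries, binding in fewer cells and weaker binding in every cell cannot be told apart.

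Smarca4 is the ATPase of the BAF complex, and Ezh2 is the enzyme of Polycomb Repressive Complex 2 (PRC2) that writes H3K27me3, a mark of repressed genes. H3K4me3 marks promoters, and H3K27ac marks active promoters and enhancers. Promoters that carry H3K4me3 and H3K27me3 together are known as bivalent. The deposited lists held 79014 Smarca4 peaks in control and 72339 in kd, 6708 and 5364 Ezh2 peaks, 22909 and 18320 H3K27me3 islands, 39091 and 51100 H3K27ac islands, and 26130 and 33506 H3K4me3 islands. Read depth is not recorded in these lists. By the methods, Smarca4 and H3K27me3 were processed by a service company and the other antibodies in the authors' laboratory, so that antibody and laboratory cannot be told apart. As a check of the cell type, 7 of 8 stem cell markers carried H3K4me3 and Smarca4 within 1 kb of the TSS in both conditions, the exception being Esrrb, and H3K27ac was called at 5 of them in control and 7 in kd. None of 13 markers of fibroblasts, neurons, endoderm and trophoblast had an H3K27ac island there in either condition. Of these 13, H3K4me3 was called at Map2, Tubb3, Gata6 and Cdx2 in both conditions, and at Thy1 and Col1a1 in kd alone. Smarca4 was called at each gene so named in both conditions, at Col1a2 in control alone and at Sox17 in kd alone. Calls of H3K4me3 and Smarca4 by themselves thus do not tell these cell types apart. The Smarcb1 promoter itself had Smarca4, H3K27ac and H3K4me3 in both conditions. An shRNA acts on the RNA, so this does not check the knockdown.

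Myc, Mycn and Mycl encode transcription factors that drive growth and proliferation genes, and they bind DNA only as dimers with Max, the shared partner of the network. Mxd1, Mxd3, Mxd4 and Mnt also pair with Max, but recruit Sin3 and histone deacetylases and repress the same kind of site, a short palindrome called the E-box (CACGTG). Mlx is a Max-like protein that pairs with the glucose-responsive factors Mlxip and Mlxipl and with some of the repressors. Mga joins a T-box domain with a Max-binding domain and is part of PRC1.6, a variant Polycomb complex. In mESC, Myc family activity is known for its part in self-renewal, and Max and Mga for restraining germ cell genes.

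Promoter sequences of 9 of the 10 members, from 250 bases before to 50 after the RefSeq start (GRCm38.p6), were examined for the network's own motif. Myc had no entry. CACGTG was present in 4 of the 9, which were Max, Mxd4, Mnt and Mlx, against 7.15% of all 32851 promoters of the table. It is its own reverse complement and was counted for both strands together. The 4 promoters are printed below from 250 bases before the start to 10 bases after it (260 bases each), in the direction of transcription, with the motif in capitals, because they show where the network's own binding motif stands in the network's genes. The coordinates are chr12:76962239-76962498 on the minus strand for Max, chr5:34187701-34187960 on the minus strand for Mxd4, chr11:74830674-74830933 on the plus strand for Mnt and chr11:101087040-101087299 on the plus strand for Mlx.
Max: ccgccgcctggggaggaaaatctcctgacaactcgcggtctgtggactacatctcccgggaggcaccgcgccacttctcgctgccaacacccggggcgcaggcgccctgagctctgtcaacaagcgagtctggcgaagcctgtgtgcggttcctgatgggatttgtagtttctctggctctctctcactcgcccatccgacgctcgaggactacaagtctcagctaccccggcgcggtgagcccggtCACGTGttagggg
Mxd4: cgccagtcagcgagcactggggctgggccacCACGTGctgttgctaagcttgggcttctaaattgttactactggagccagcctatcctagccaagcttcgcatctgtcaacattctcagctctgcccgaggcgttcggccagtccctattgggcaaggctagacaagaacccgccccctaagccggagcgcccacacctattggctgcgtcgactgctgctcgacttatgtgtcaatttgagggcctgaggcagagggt
Mnt: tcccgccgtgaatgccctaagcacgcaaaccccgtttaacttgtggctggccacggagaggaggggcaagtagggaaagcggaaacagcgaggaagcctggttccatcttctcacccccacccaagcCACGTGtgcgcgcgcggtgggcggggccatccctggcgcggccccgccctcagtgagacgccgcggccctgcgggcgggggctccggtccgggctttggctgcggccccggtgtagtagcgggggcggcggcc
Mlx: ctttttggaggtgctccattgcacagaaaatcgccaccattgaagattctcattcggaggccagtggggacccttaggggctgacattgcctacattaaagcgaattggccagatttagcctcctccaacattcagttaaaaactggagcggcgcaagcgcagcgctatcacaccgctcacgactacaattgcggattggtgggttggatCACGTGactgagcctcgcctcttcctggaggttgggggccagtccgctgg
The motif began 3 bases before the start in Max, 40 before it in Mlx, 123 before it in Mnt and 219 before it in Mxd4. A match is a description of these letters and not a measured binding site. The 9 promoters held between 14 and 39 CpG dinucleotides each, with a median of 24.0 against 7 over all promoters. The observed over expected CpG ratio was at least 0.6 in 8 of the 9, against 35.8% of all promoters, and Mycn was the exception at 0.58. CACGTG itself holds a CpG, and its share was not taken over promoters of like CpG content. The difference between 4 of 9 and 7.15% was therefore not tested apart from CpG content.

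Across the windows, Smarca4 and H3K4me3 were present at all 10 members in both conditions, H3K27ac was called at more members in kd, and H3K27me3 at fewer. Smarca4 peaks lay in the windows of all 10 members, where 80.2% of protein-coding genes had one in control and 82.8% in kd. H3K4me3 islands did so as well, against 78.3% and 83.6%. H3K27ac was called at 8 members in control and all 10 in kd, against 60.7% and 76.6% of genes, and Mnt and Mlx were the members with islands in kd alone. H3K27me3 was called at 6 members in control and 4 in kd, against 65.3% and 56.3%, and Max and Mxd4 had it in control alone. Ezh2 was called at 1 member in control and 2 in kd, against 21.4% and 22.6%.

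**Figure D1:**
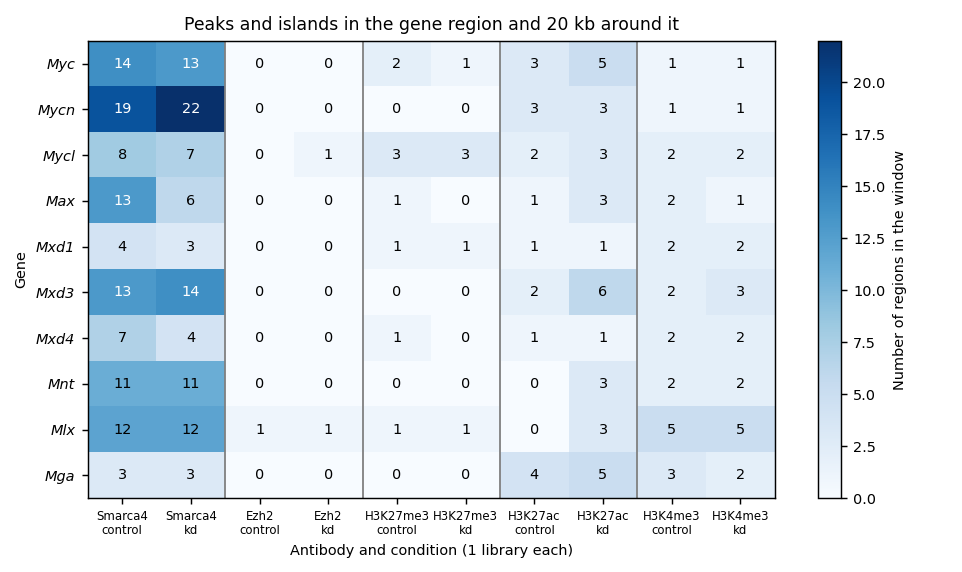
Number of called regions in the window of each member (rows) for each antibody and condition (columns, 1 library each), by colour and printed number. Mycn had the most Smarca4 peaks, 19 in control and 22 in kd, and the H3K27ac numbers were higher in kd at 7 members and lower at none.

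By the median, the windows held more Smarca4 peaks than those of all protein-coding genes. They held 104 in control and 95 in kd, a median of 11.5 and 9 per member against 3 over all protein-coding genes in either condition. The number ranged from 3 at Mga to 19 at Mycn in control, and from 3 at Mxd1 and Mga to 22 at Mycn in kd. In control, 95.9% of protein-coding genes had as many Smarca4 peaks as Mycn or fewer, and for Myc this share was 91.1%. All members had H3K4me3 at the promoter, and these numbers were not set against such genes alone. Some of the peaks lay at promoters of neighbouring genes. Windows differ in length, from 45656 bp at Mxd3 to 113354 bp at Mga, so that Mga had the fewest peaks in the longest window. Smarca4 peaks were fewer in kd at 5 members, more numerous at 2 and equal in number at 3. They covered 66931 bases in control and 59536 in kd, a ratio of kd to control of 0.890. Per member, the median log2 ratio of covered bases was -0.19, ranging from -0.72 at Max to 0.07 at Mlx, against a median of -0.15 over 17142 protein-coding genes with Smarca4 in both lists.

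At the promoters, taken as 1 kb either side of the TSS, all 10 members carried Smarca4 and H3K4me3 in control and in kd. Over all protein-coding genes Smarca4 was called at 62.5% of promoters in control and 63.5% in kd, and H3K4me3 at 56.6% and 60.4%. Smarca4 was called there in control alone at 2.69% of genes and in kd alone at 3.69%, and H3K4me3 at 0.779% and 4.59%, but at none of the members. The members differed in the marks on H3K27. In control, H3K27me3 stood at the promoters of Myc, Mycl, Mxd1 and Mxd4, 4 of 10 against 34.9% of genes, and in kd at Mycl and Mxd1, 2 of 10 against 29.2%. H3K27ac stood at Mycn, Max and Mga in both conditions and at Myc, Mxd3 and Mnt in kd alone, which made 3 members in control against 16.0% of genes and 6 in kd against 30.9%. No member promoter carried H3K27ac and H3K27me3 together in either condition. Mlx alone had neither mark in control and in kd.

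These differences in the marks on H3K27 went the way the lists of these marks as a whole went. H3K27ac in kd alone was found at 3 of 10 member promoters and at 16.8% of all promoters, and in control alone at 0 and at 1.83%. H3K27me3 in control alone was found at 2 of 10 and at 8.15%, and in kd alone at 0 and at 2.39%. Ezh2 was called at no member promoter in control and at 1 in kd, against 7.13% and 12.6% of genes. That promoter, of Mycl, was in kd alone, as at 5.78% of genes, whereas Ezh2 in control alone was seen at 0.283% of genes. The Ezh2 list as a whole was shorter in kd, with 5364 peaks against 6708 in control. Because all members carried H3K4me3 in both lists, the shares were also taken over the 12239 promoters that did so, a choice made after the data were seen. Among these, H3K27ac in kd alone reached 27.2%, H3K27me3 in control alone 6.45% and Ezh2 in kd alone 8.64%. The H3K27ac count of 3 in 10 thus lay near the share of other H3K4me3 promoters. How strong a region was is given below by its score and by its percentile within its list. A percentile is the rank of a region in its list as a percent of the list's length, by MACS2 score or SICER p-value. It is used because neither value is scaled between libraries. Regions with equal values share their mean rank, so islands with a p-value given as 0 do not stand at the top. They stand at percentile 96.2 for H3K4me3 in control, 93.1 for H3K4me3 in kd and 94.7 for H3K27me3 in control.

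**Figure D2:**
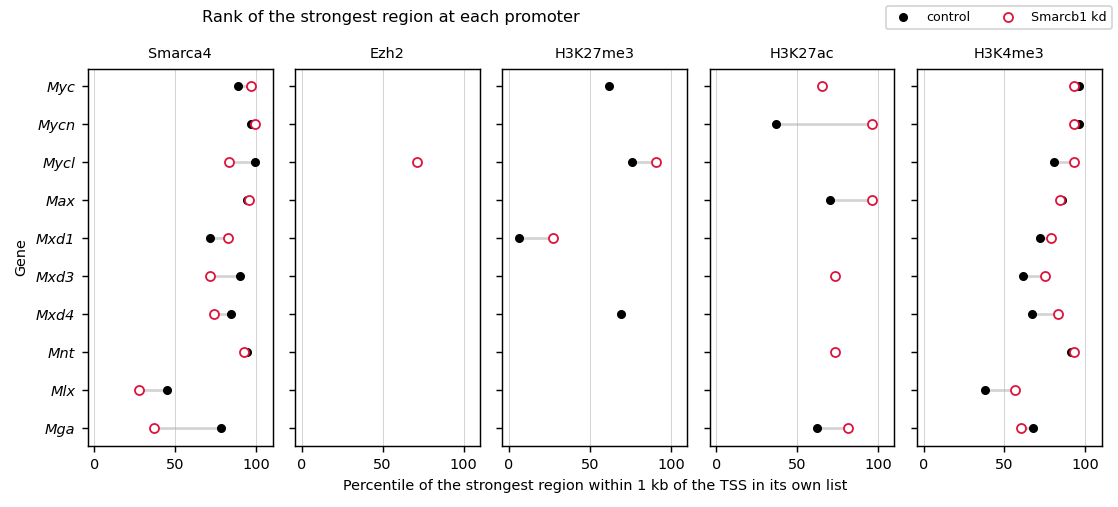
Percentile, within its own list, of the strongest region within 1 kb of the TSS of each member (rows), by antibody (panels), in control (black) and Smarcb1 kd (open red), with no point where no region was called. The strongest region need not be the same peak in both conditions. The Smarca4 points of Mycl lie at 99.3 in control and 83.0 in kd and those of Mga at 77.9 and 36.9. The H3K27ac points of Mycn, Max and Mga lie higher in kd, where the list is longer. Shared H3K27ac islands of the windows had a median percentile of 48.1 in control and 78.7 in kd.

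Myc (chr15:61985391-61990374, plus strand) was the member whose promoter carried H3K27me3 in the control list and H3K27ac in the kd list. In control an H3K27me3 island of 2600 bp reached from 210 to 2809 bp downstream of the TSS (chr15:61985601-61988200), at percentile 62.0 of its list and over 39.5% of the promoter, and no H3K27ac island overlapped the promoter. In kd the H3K27me3 island was not called, and an H3K27ac island of 3200 bp lay across the TSS (chr15:61983601-61986800), at percentile 65.5. A further H3K27me3 island upstream of Myc was called in both conditions, from 9990 to 2591 bp before the TSS in control (percentile 67.7) and from 10590 to 3391 bp in kd (percentile 40.6). H3K4me3 covered the whole gene in both, in islands of 7000 bp and 7600 bp.

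Smarca4 peaks at Myc differed in rank between the lists, in both directions. The peak that begins 94 bp after the TSS in control had a score of 190 and its counterpart in kd 345, percentiles 88.8 and 96.6. The next peak, from 2038 bp after the TSS, had 489 in control and 223 in kd, percentiles 99.2 and 89.5. The peak just upstream of the TSS had 140 in control and 240 in kd, and the last peak in the gene body 85 and 171. So 3 of the 4 peaks at and in Myc ranked higher in kd, and the strongest of the 4 in control ranked lower. Downstream of Myc 3 H3K27ac islands were called in both conditions, from 8410 to 13409 bp, from 16210 to 17209 bp and from 22210 bp on in control. An H3K27ac island of 1000 bp in kd alone lay 12090 bp upstream, and 81.3% of its bases were repeat-masked.

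Mycn (chr12:12936093-12941914, minus strand) had the most Smarca4, with peaks over 32.9% of its window in control and 34.0% in kd. The peak upstream of its TSS had a score of 322 in control and 468 in kd, percentiles 96.5 and 98.9. The peak over the TSS and most of the gene, 3218 bp and 3651 bp wide, had 261 and 342. No H3K27me3 and no Ezh2 was called in the window in either condition. H3K27ac lay over the promoter in both, but in different shape. The control island ran over 15200 bp at percentile 37.1, and the kd island over 5000 bp at percentile 96.4. H3K27ac covered 20200 bases of the Mycn window in control and 11000 in kd, a kd to control ratio of 0.545, although the number of islands was 3 in each list. Only 1 Smarca4 peak was in control alone and 4 were in kd alone, and these ranked between percentile 25.0 and 50.6.

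Mycl (chr4:122995652-123002485, plus strand), the Myc family member best known from lung cancer, had a bivalent promoter in both conditions and an Ezh2 call in kd alone. An H3K27me3 island covered the promoter in both conditions, 10400 bp wide at percentile 75.7 in control and 11800 bp wide at percentile 91.0 in kd. Ezh2 was not called in the control list and was called in kd, in a peak of 1407 bp from 219 to 1625 bp after the TSS (chr4:122995871-122997277), with a score of 253 and at percentile 71.3. The Smarca4 peak over the same TSS had a score of 505 in control, percentile 99.3, and 162 in kd, percentile 83.0. This was the strongest Smarca4 peak of all member windows in control. H3K4me3 at the promoter was 5400 bp wide in control and 3000 bp in kd, at percentiles 80.3 and 93.1, the latter shared by all kd islands with a p-value given as 0. The part of the Ezh2 peak nearest to its centre that is wholly coding is printed here as 300 bases (chr4:122996523-122996822, plus strand, GRCm38), because it lies in the only Ezh2 peak at a member promoter. No motif is marked, since CACGTG was not found in it.
Mycl Ezh2 kd-only: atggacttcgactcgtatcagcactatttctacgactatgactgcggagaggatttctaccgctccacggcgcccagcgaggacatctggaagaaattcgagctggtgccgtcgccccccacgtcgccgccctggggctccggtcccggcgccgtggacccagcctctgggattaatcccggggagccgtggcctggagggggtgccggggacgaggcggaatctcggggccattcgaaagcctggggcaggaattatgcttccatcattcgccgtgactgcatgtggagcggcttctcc
This stretch had an observed over expected CpG ratio of 0.93. The other H3K27me3 islands near Mycl ended 7452 bp upstream or farther, and in control a further island began 9349 bp downstream, where the kd promoter island reached instead.

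**Figure D3:**
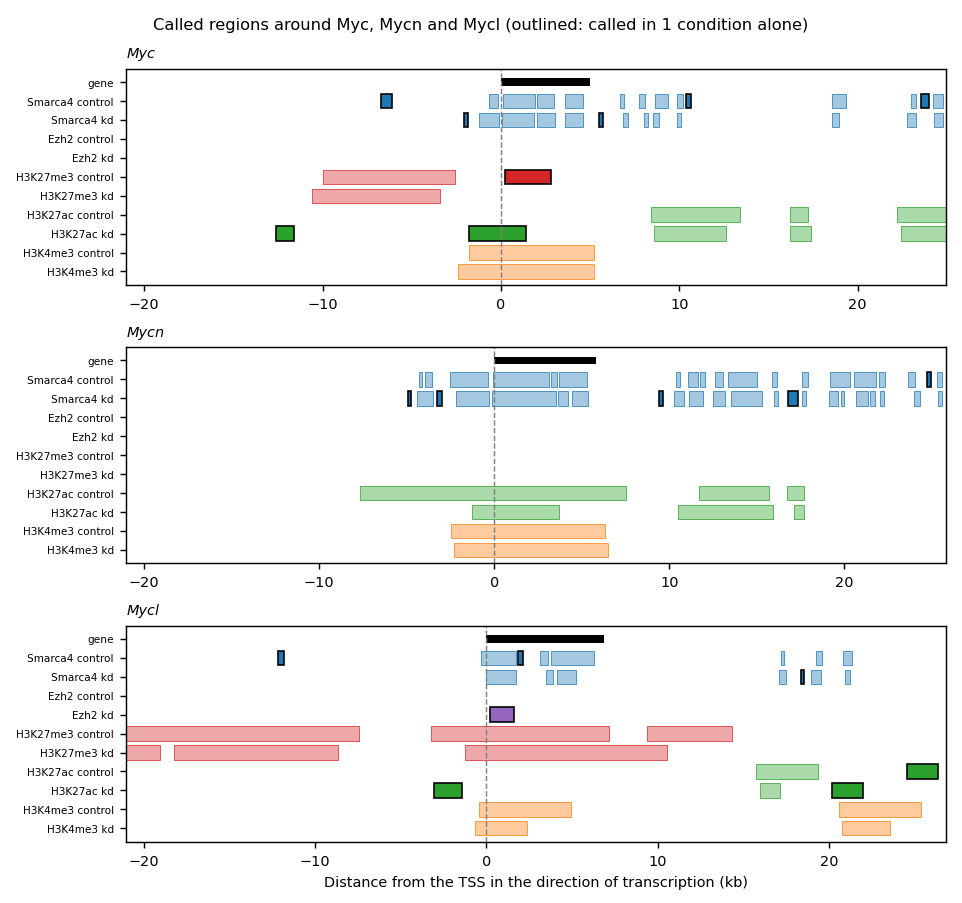
Called regions in the windows of Myc, Mycn and Mycl, by distance from the TSS (kb, in the direction of transcription). Pale boxes overlap a region of the other condition's list, outlined dark boxes do not, and the black bar is the gene. At Myc the H3K27me3 island in the gene appears in control alone and the H3K27ac island at the TSS in kd alone, and at Mycl the Ezh2 peak appears in kd alone.

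Max (chr12:76937269-76962201, minus strand), the obligate partner of the Myc proteins, differed most in the number of Smarca4 peaks, with 13 in control and 6 in kd. None was in kd alone. The 6 peaks in control alone lay away from the promoter, and those at the TSS ranked high in both lists. At the TSS a peak of 885 bp with a score of 261 and another just upstream with 162 in control stood against a peak of 1876 bp with 308 in kd. The peak 3193 bp upstream (3326 bp in kd) had 242 in control and 272 in kd, percentiles 92.9 and 93.2. The CACGTG printed above for Max lay inside these promoter peaks in both lists, and in the central 300 bases of the kd peak. H3K27ac extended from the promoter upstream in both, over 11600 bp at percentile 70.3 in control and over 7600 bp at percentile 96.4 in kd. An H3K27me3 island of 8600 bp between 16799 and 8200 bp upstream (chr12:76970401-76979000) was in control alone, at percentile 34.5. Fntb, a neighbour, is the other protein-coding gene of this window.

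Among the repressors, Mxd4 (chr5:34173883-34187720, minus strand) had the widest H3K27me3 island called in 1 condition alone. It covered 12200 bp from 4080 bp before to 8119 bp after the TSS in control (chr5:34179601-34191800), at percentile 69.0. No H3K27me3 was called in the kd window, and no H3K27ac at the promoter in either list. H3K4me3 at the promoter was 1800 bp wide at percentile 67.0 in control and 2800 bp wide at percentile 83.2 in kd. Smarca4 stood at the TSS in both conditions, with a best score of 156 in control and 116 in kd, in different peaks. The control peak of 156, after the TSS, overlapped kd peaks of 53 and 55. The kd peak of 116, before the TSS, overlapped a control peak of 29. Near the 3′ end of Mxd4 there were 4 Smarca4 peaks in control and none in kd. The strongest of them, in an exon at chr5:34175266-34175766, had a score of 174, percentile 86.7, which was the highest rank of any Smarca4 peak in 1 condition alone in the member windows. The other 3 of these peaks had scores between 32 and 46. Downstream of the gene a peak 18071 bp from the TSS, at the promoters of Haus3 and Poln, had 52 in control and 161 in kd.

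Mxd1 (chr6:86647042-86669161, minus strand) carried H3K27me3, H3K4me3 and Smarca4 at its promoter in both lists. Its H3K27me3 island was weak in both, at percentile 6.31 in control and 27.1 in kd, 3200 bp and 2800 bp wide. The Smarca4 peak at the TSS had a score of 102 in control and 160 in kd. The H3K27ac island of its window, 13240 to 16439 bp upstream in kd, was 400 bp wide in control and 3200 bp in kd. This island lies at the promoter of Snrnp27, a neighbour, and no H3K27ac was called at the Mxd1 promoter. The ratio of 8 was the highest for that mark among the 8 windows that had it in both lists.

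Mxd3 (chr13:55325168-55329823, minus strand) had 2 H3K27ac islands in control and 6 in kd. An island in kd alone, of 3800 bp at percentile 73.5, lay upstream of the TSS and ended 22 bp past it (chr13:55329801-55333600). H3K27ac covered 4400 bases of the window in control and 13433 in kd, a ratio of 3.05. The neighbours Nsd1, Rab24, Prelid1 and Lman2 share this window. Smarca4 at the Mxd3 TSS had its best score at 204 in control and 105 in kd, percentiles 90.2 and 71.3, in different peaks. The control peak of 204 overlapped a kd peak of 88, and the kd peak of 105 a control peak of 97. An H3K4me3 island in kd alone, 8978 bp upstream, was weak, at percentile 16.6, and 57.3% of its bases were repeat-masked.

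Mnt (chr11:74830920-74845725, plus strand), the most widely expressed of the Max-binding repressors, had no H3K27ac island in the control window and 3 in kd. The island across its TSS, of 3800 bp (chr11:74829201-74833000), ranked at percentile 73.5 and covered the CACGTG printed above, which lies 123 bases before the start. The others were 4400 bp and 1200 bp wide, in the gene body and 16280 bp from the TSS. H3K4me3 at the promoter stood at percentile 91.1 in control and 93.1 in kd. Smarca4 was called at the promoter as 3 peaks in control, with scores of 45, 84 and 261, and as 1 peak of 3390 bp with 256 in kd.

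**Figure D4:**
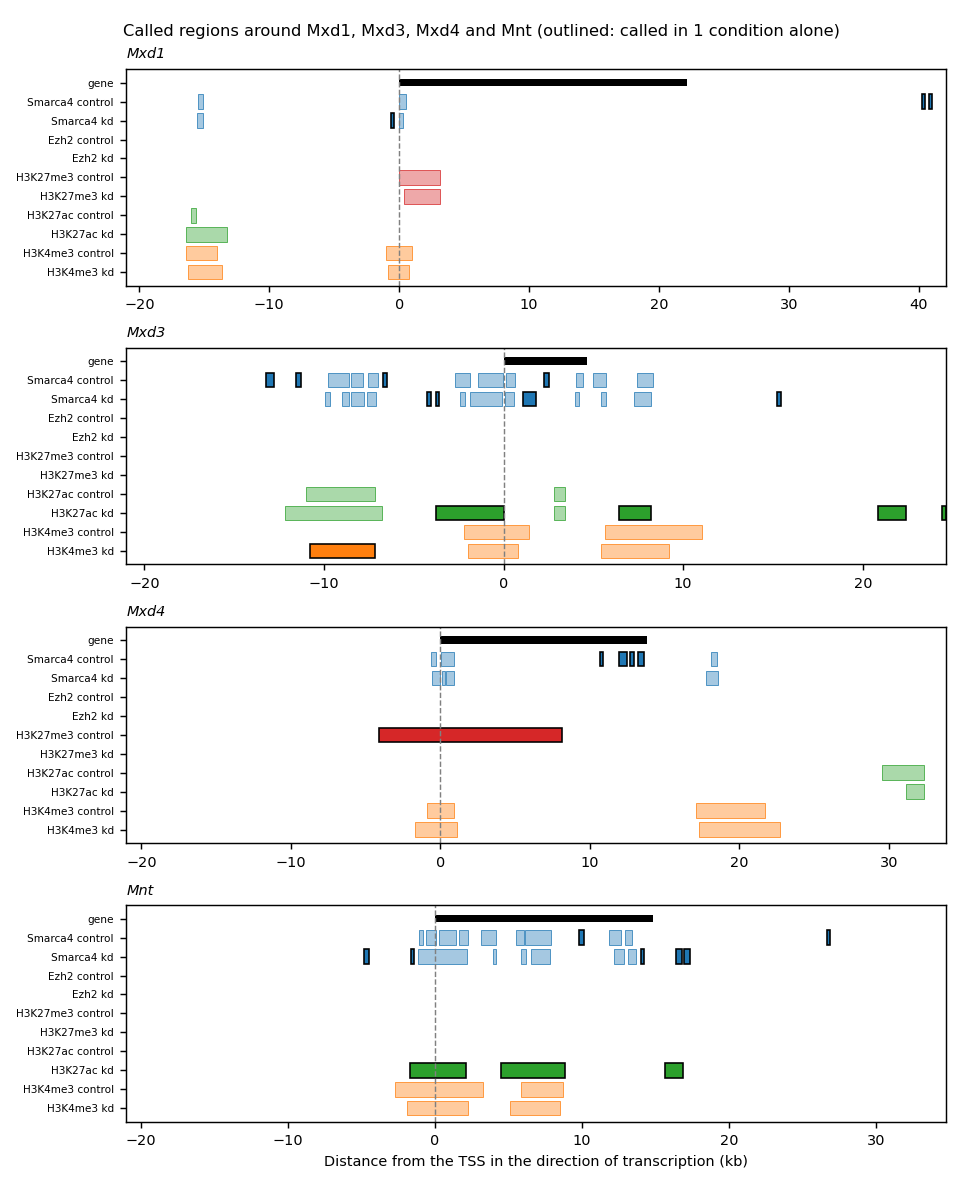
Called regions in the windows of the repressors Mxd1, Mxd3, Mxd4 and Mnt, by distance from the TSS (kb, in the direction of transcription), with boxes as pale for shared and outlined dark for regions in 1 condition alone. The H3K27me3 island over the start of Mxd4 and the Smarca4 peaks near its 3′ end appear in control alone, and the H3K27ac islands at the starts of Mxd3 and Mnt in kd alone.

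Mlx (chr11:101087277-101092207, plus strand) had the weakest Smarca4 at its promoter, with best scores of 58 in control and 42 in kd, percentiles 44.7 and 27.8. H3K4me3 was called there in both lists, at percentiles 37.9 and 56.8, which was the lowest of the members. Its window also holds Naglu, Hsd17b1, Coasy, Psmc3ip and Retreg3, and the strong regions lay with these neighbours. An H3K27me3 island of 17400 bp in control and 16000 bp in kd, percentiles 94.7 and 94.8, ended 2477 bp and 4877 bp before the Mlx TSS. The Ezh2 peak of this window lay 7416 bp upstream of Mlx in control and 7476 bp in kd, with scores of 71 and 55. The 3 H3K27ac islands of the kd list were narrow, 400 to 1200 bp, and lay downstream of Mlx at percentiles from 5.14 to 38.1.

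Mga (chr2:119897228-119969581, plus strand) held the fewest Smarca4 peaks, 3 in each list, and these were shared. The peak at the TSS had a score of 126 in control and 47 in kd, percentiles 77.9 and 33.4. The peak 75054 bp downstream, past the end of the gene and at the promoter of Mapkbp1, had the opposite order, with 86 in control and 241 in kd, percentiles 64.4 and 91.1. H3K27ac lay over the promoter in islands of 10400 bp in control and 4400 bp in kd, percentiles 62.2 and 81.3. H3K4me3 at the promoter had percentiles of 67.7 and 60.5. An H3K4me3 island of 2800 bp in the gene, 11173 to 13972 bp from the TSS, was in control alone at percentile 28.8.

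**Figure D5:**
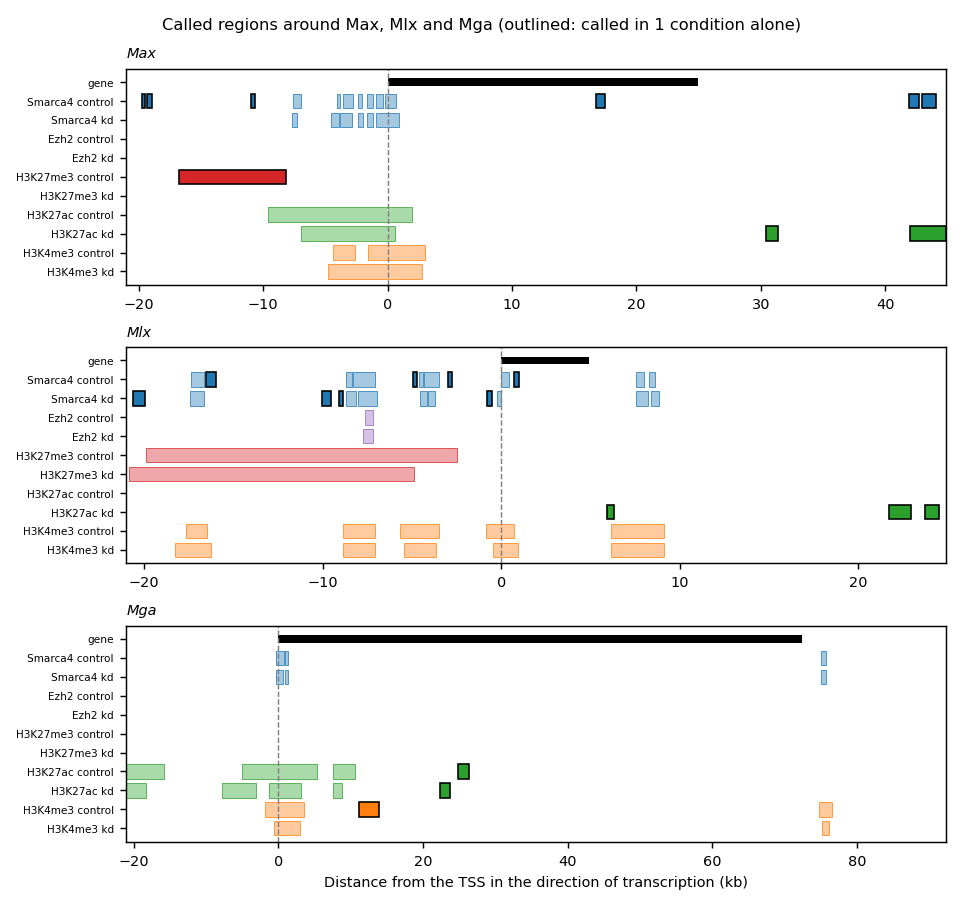
Called regions in the windows of Max, Mlx and Mga, by distance from the TSS (kb, in the direction of transcription), with boxes as pale for shared and outlined dark for regions in 1 condition alone. The outlined Smarca4 peaks of Max are in control alone, the H3K27me3 and Ezh2 regions near Mlx lie upstream of its start, and Mga has Smarca4 peaks at its start and past its end.

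Regions without a counterpart in the other condition were counted over all windows. Of the Smarca4 peaks, 76 of 104 in control overlapped a kd peak (73.1%, 95% Wilson interval 63.8 to 80.7), and 74 of 95 in kd overlapped a control peak (77.9%, 68.6 to 85.1). Over the whole lists these shares were 56.1% and 64.4%. Intervals cover counting error only. There were 28 Smarca4 peaks in control alone and 21 in kd alone, so that 42.9% (30.0 to 56.7) of the 49 were in kd alone, as were 42.6% in the whole lists. These peaks were weak. Their median percentile was 34.1 in control and 36.9 in kd, against 64.9 and 55.6 for shared peaks, and their median width was 277 bp and 243 bp against 566 bp and 512 bp. Of the 28, 1 touched a member promoter, and of the 21, 2 did.

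A control-only Smarca4 peak upstream of Mxd3 and a kd-only peak upstream of Mlx ranked among the highest of their kind. Their scores were 111 and 87, at percentiles 74.5 and 65.0 of their lists. Their centres lay 12984 and 20297 bp before the TSS, and neither overlapped a promoter of another protein-coding gene. Their central 300 bases are printed on the plus strand of GRCm38, as examples of sites called in 1 condition alone outside promoters (chr13:55342657-55342956 and chr11:101066831-101067130). Neither contains CACGTG.
Mxd3 Smarca4 control-only: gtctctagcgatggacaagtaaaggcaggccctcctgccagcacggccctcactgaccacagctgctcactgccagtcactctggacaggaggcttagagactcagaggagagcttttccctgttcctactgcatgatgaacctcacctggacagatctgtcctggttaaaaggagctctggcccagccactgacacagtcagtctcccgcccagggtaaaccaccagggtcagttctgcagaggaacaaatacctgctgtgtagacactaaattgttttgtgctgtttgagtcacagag
Mlx Smarca4 kd-only: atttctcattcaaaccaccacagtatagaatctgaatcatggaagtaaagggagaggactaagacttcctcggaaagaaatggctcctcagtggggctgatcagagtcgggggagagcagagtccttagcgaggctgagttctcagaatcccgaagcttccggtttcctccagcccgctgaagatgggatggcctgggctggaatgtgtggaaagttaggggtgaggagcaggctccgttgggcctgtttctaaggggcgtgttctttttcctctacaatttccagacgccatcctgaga
Their observed over expected CpG ratios were 0.14 and 0.45, below the 0.6 reached by most member promoters. In the central 300 bases of the Smarca4 peaks of the windows, CACGTG was found in 5 of 104 in control (4.81%) and in 10 of 95 in kd (10.5%), against 6.10% and 6.27% of the whole lists. At Max, Mxd4 and Mlx the kd promoter peak held the printed match centrally and the control promoter peaks did not. At Mnt the kd promoter peak held another match centrally, past the TSS, and the control promoter peaks did not. Mxd3 and Mga each had a promoter peak with CACGTG held centrally in both lists. All of this also depends on where the edges of each peak were called.

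The marks showed other balances. H3K27ac had 2 islands in control alone and 17 in kd alone, so that 89.5% (68.6 to 97.1) of these were in kd alone, against 69.0% in the whole lists. The kd list is the longer one, and with lists of equal length this share came to 66.7%, of 15 islands. Of the 17, 3 lay at member promoters and had the highest ranks, and the median percentile of all 17 was 34.5. Repeat-masked bases made up at least 50% of 6 of the 17, and of 79.1% of the whole H3K27ac list in control and 74.1% in kd. H3K27me3 had 3 islands in control alone, at Mxd4, Myc and Max, and 0 in kd alone (upper bound of the Wilson interval 56.1%), against a kd-only share of 34.4% in the whole lists. H3K27me3 covered 80349 bases of the windows in control and 49349 in kd, a ratio of 0.614. H3K4me3 had 1 island in control alone, at Mga, and 1 in kd alone, at Mxd3, against a kd-only share of 82.4% in the whole lists. Its ratio of covered bases was 0.923 over all windows, and 0.460 at Mga and 0.569 at Mycl.

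The genes around the network were taken as lists of 54 genes in all, counted over gene regions without flanks. Smarca4 and H3K4me3 were called at all 54 in both conditions. Of all 55413 annotated genes, coding or not, Smarca4 was called at 38.9% of gene regions in control and 39.4% in kd. For H3K4me3 these shares were 33.6% and 36.7%. Over all protein-coding genes, Smarca4 was called in control alone at 2.45% and in kd alone at 3.85% of gene regions, and H3K4me3 at 0.825% and 5.49%. H3K27ac was called at 30 of the 54 in control and 49 in kd, against 19.4% and 28.1% of all annotated genes. The 19 with a call in kd alone included the Myc targets Odc1, which makes polyamines, Cad, of pyrimidine synthesis, and Cdk4, a cell cycle kinase. No gene of the 54 had it in control alone. Over protein-coding genes, H3K27ac was in kd alone at 18.9% of gene regions and in control alone at 3.06%. At promoters, 16 of the 54 had it in kd alone and 1 in control alone. Among promoters with H3K4me3 in both lists these shares were 27.2% and 2.24%. Among the 10 members, 2 had H3K27ac over the gene region in kd alone, as Mxd3 had a weak island in its body in both lists. H3K27me3 was called at 13 of the 54 in control and 10 in kd, against 27.4% and 22.4% of all annotated genes. Bop1 and Eif4e, of ribosome biogenesis and translation, Ring1, an enzyme of PRC1, and Tfdp1, a partner of E2F factors, had it in control alone. Huwe1, a ubiquitin ligase, had it in kd alone. Over protein-coding genes, H3K27me3 was in control alone at 9.74% of gene regions and in kd alone at 2.95%. Ezh2 was called at 4 of the 54 in each condition, against 6.96% of all annotated genes in control and 8.06% in kd. In each condition 2 of the 4 were called in that condition alone. Over protein-coding genes, Ezh2 was in control alone at 3.19% of gene regions and in kd alone at 5.96%.

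The closest relatives in these lists had different calls. Ezh2 lay at the promoter of Mlxipl, a partner of Mlx, in control alone (chr5:135089761-135090098, percentile 49.1), and at that of Mxi1, another Max-binding repressor, in kd alone (chr19:53310587-53310954, percentile 38.1). L3mbtl2, a partner of Mga in PRC1.6, had Ezh2 over its gene region in control alone at percentile 28.7, and Yaf2, of the same complex, in kd alone at percentile 0.923. Of the 9 partners of Mga in PRC1.6, H3K27me3 was called at the promoters of 4 in control and 2 in kd, and H3K27ac at 6 and 8. Over all protein-coding genes, H3K27me3 was called at 34.9% of promoters in control and 29.2% in kd, and H3K27ac at 16.0% and 30.9%, with 16.8% in kd alone. Among the promoters with H3K4me3 in both lists, H3K27ac was called at 26.0% in control and 51.0% in kd, with 27.2% in kd alone. Of the 22 known Myc targets, H3K27ac was called at the promoters of 11 in control and 16 in kd, with 5 in kd alone. Of the 20 partners and regulators it was called at 8 and 15, with 8 in kd alone and the promoter of Usp28, a deubiquitinase, in control alone.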

How the data were processed

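ChIP-seq libraries of 81K1 mESC were analysed as the authors' called regions. There were 10 lists, 1 per antibody and condition. The 4 background samples entered only through the authors' calls. According to the methods and the submitters' processing notes, reads were trimmed (Trim Galore), aligned to mm10 (Bowtie2) and filtered (SAMtools 1.9). Peaks of Smarca4 and Ezh2 were called with MACS2, and islands of the marks with SICER. The methods and sample titles name input as background, while the antibody label of the same samples and the peak names say IgG. Peak lists as deposited carry the MACS2 score computed by the authors, 13 at the lowest. Island lists carry the p-value that the authors obtained from SICER, written as 0 for up to 4619 islands of a list. Reads were not analysed here, so depth is unknown and no interval for it can be given.

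Regions on the standard chromosomes were overlapped (at least 1 bp) with GENCODE M21 genes on GRCm38, whereas the methods name a later release. A region that overlapped nothing in the opposite list was called control-only or kd-only. Shares carry 95% Wilson intervals (statsmodels 0.14.6). The overlap steps were tested on simulated lists and against bedtools 2.31.1. Background shares are over 21938 protein-coding genes unless all annotated genes or promoters with H3K4me3 are named. The members, gene lists and alternatives were chosen with earlier results of these data known. All members are named. Other genes are named where a gene region held Smarca4, Ezh2, H3K27me3 or H3K4me3 in 1 condition alone (up to 6 per antibody), and a few with H3K27ac were chosen after their values were seen. Regions in 1 condition alone are given with coordinates where they ranked highest (up to 3 per antibody and list) or lay at a member's TSS. Motifs were searched in RefSeq promoters and in GRCm38. Alternatives concerned window, threshold, list length, repeats, overlap and merging. The sequence of 1 Smarca4 peak is not reported here.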

Additional observations from a re-analysis of the deposited data

How the results depend on the processing

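No paired analysis was possible because there was 1 library per antibody and condition, and for the same reason no replicate could be left out. The 6 promoter differences (H3K27ac at Myc, Mxd3 and Mnt, H3K27me3 at Myc and Mxd4, Ezh2 at Mycl) were the same with a stricter threshold, lists of equal length, regions under 50% repeat-masked and regions merged within 1 kb, alternatives added for these after the data were seen. Smarca4 and H3K4me3 were called in all 10 windows under every alternative, and at all 10 promoters except for Smarca4 in kd with the stricter threshold, at 8. With the gene region alone, Ezh2 was called at 0 members in control and 1 in kd, H3K27me3 at 2 in kd, and H3K27ac at 4 and 6. Within 1 kb of the TSS, these were 0 and 1 for Ezh2, 2 in kd for H3K27me3, and 3 and 6 for H3K27ac. With 50 kb on each side, Ezh2 was called at 3 members in control and 2 in kd, and H3K27me3 at 10 in control and 8 in kd. The share of Ezh2 peaks in kd alone, 100% of 1 peak, was then 50.0% of 2 peaks. The stricter threshold left H3K27me3 at 4 windows in control and 2 in kd, and at 3 promoters and 1. The share of Smarca4 peaks in kd alone, 42.9%, was 66.7% within 1 kb of the TSS (of 3 peaks), 29.5% with the stricter threshold and 26.3% after merging. For H3K27ac, 89.5%, it was 100% within 1 kb of the TSS and 66.7% with lists of equal length. For H3K4me3, with 1 island each way, it was 0% with the gene region alone, lists of equal length or regions under 50% repeat-masked. H3K27ac covered 1.13 times as many bases of the windows in kd as in control, but 0.930 times with the stricter threshold and 0.926 times with lists of equal length. Of the values recomputed for counts, shares and ratios, 114 were identical, 40 differed within limits (1.5 times for counts and ratios, the Wilson interval for shares), 22 went beyond these and 3 turned direction. The cause was not tested. Over all 55413 annotated genes in place of protein-coding genes, H3K27ac in kd alone was called at 9.78% of promoters and H3K27me3 in control alone at 6.60%.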
